A study of Mus musculus with 6 samples.

Results

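Of 54429 genes in the count files, 10 that write or erase methylation on lysine 9 of histone H3 (H3K9), or hold the writers together, were examined in prefrontal cortex (PFC). They were chosen by gene symbol and not by a threshold on their measured values, but with earlier results of these data known. All 10 were found in all 6 libraries and passed the filter on low counts that left 20409 genes for testing. They comprised the dimethyl (H3K9me2) writers Ehmt1 and Ehmt2, their zinc finger partner Wiz, the trimethyl (H3K9me3) writers Setdb1, Suv39h1 and Suv39h2, and the demethylases Kdm3a, Kdm3b, Kdm4a and Kdm4b. The groups were WT mice of the C57BL/6 x C3H background given vehicle, PS19(P301S) transgenic mice given vehicle (Tau), and PS19(P301S) mice given UNC0642, each with 2 mice aged 6 months. UNC0642, an inhibitor of EHMT1 and EHMT2, was injected into the peritoneum at 1 mg/kg once daily on 3 days, vehicle was saline with a little DMSO, and tissue was taken a day after the last injection. The transgene encodes a human tau with the P301S mutation, driven by the mouse prion promoter. No WT mice given UNC0642 were among these libraries, so treatment was compared within the transgenic mice. Treated mice differed from WT mice in genotype and treatment together, so values relative to WT cannot be assigned to either. As bulk tissue was sequenced, fewer cells of a type and less RNA per cell cannot be told apart.

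Methylation of H3K9 marks silenced chromatin. EHMT1 (GLP) and EHMT2 (G9a) act as a heterodimer that places the mono- and dimethyl marks in euchromatin, and the zinc finger protein WIZ binds both and stabilizes the complex on chromatin. SETDB1 places trimethyl marks at retrotransposons and at genes bound by zinc finger repressors, and SUV39H1 and SUV39H2 do so in pericentromeric heterochromatin. KDM3A and KDM3B remove mono- and dimethyl marks, and KDM4A and KDM4B remove the trimethyl mark. UNC0642 competes with the histone substrate of EHMT1 and EHMT2, so it acts on enzyme activity and not directly on the transcripts counted here.

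The libraries held 17005664 to 28972176 counts. Several stood apart or went against their labels. In counts scaled to the size of a library (CPM), the prion gene Prnp was at 873 in WT replicate 2 and between 1470 and 1694 in mice with the transgene. It was at 1652 CPM in the library labelled WT replicate 1, unlike its partner. The tau gene Mapt was at 448.7 CPM in WT replicate 2 and between 570.5 and 614 CPM in mice with the transgene. It was at 575.6 CPM in the library labelled WT replicate 1. The values of Ehmt2, Wiz and Kdm3a relative to WT are therefore given with and without that library, and without it 0 members were called between Tau and WT mice and 2 between treated and WT mice, as with it. Both Tau libraries expressed the female transcript Xist, at 4104 and 5340 counts, and both UNC0642 libraries the Y-linked Ddx3y, at 1705 and 2241 counts, so sex and treatment cannot be told apart in the comparison of these groups. Of the WT libraries, replicate 1 was of the Y-linked and replicate 2 of the Xist type. Tau replicate 2 held more oligodendrocyte and striatal transcript than the others, with 6 oligodendrocyte markers summing to 5279 CPM against 1386 to 2840, and 6 striatal neuron markers to 166 CPM against 63.6 to 78.2. The 6 neuron markers, which include Snap25 and Slc17a7, summed to 5458 to 6407 CPM in the 6 libraries, the 6 astrocyte markers to 4076 to 4685, the 6 microglia markers to 247 to 312, the 3 oligodendrocyte progenitor markers to 96.3 to 123 (both lists highest in the Tau libraries) and the 6 meningeal fibroblast markers to 28.3 to 53.9 CPM.

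Compared on a scale that divides CPM by exon length in kilobases (RPKM), Ehmt2 was the most abundant of the 10 transcripts. It was at 27.9 and 28.7 RPKM in WT mice, 29.03 and 23.8 in Tau mice, and 26.8 and 29.3 after UNC0642. Its partner enzyme Ehmt1 was at 5.38 to 6.03 RPKM in the 6 libraries, so that the level of Ehmt2 was 3.99 to 5.44 times that of Ehmt1. Wiz was the least abundant member on average, at 0.902 to 1.71 RPKM, and its range also was the widest, with a highest value 1.90 times the lowest. Between these, the demethylases Kdm4b, Kdm3a and Kdm4a had means of 12.1, 9.42 and 9.12 RPKM, and Setdb1 of 7.74. Ehmt1 (mean 5.73 RPKM), Kdm3b (4.40), Suv39h1 (3.49) and Suv39h2 (1.48) followed. Neighbours in this order overlapped over the 6 libraries for Kdm4b with Kdm3a, Kdm3a with Kdm4a, Kdm4a with Setdb1, Kdm3b with Suv39h1 and Suv39h2 with Wiz. Ehmt2 stood above all others in every library, and Ehmt1 lay below Setdb1 and above Kdm3b without overlap.

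**Figure D1:**
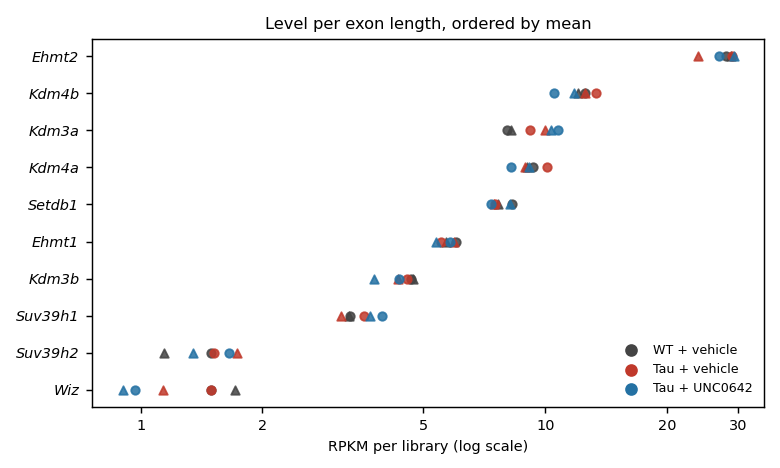
RPKM (log scale) of each gene in each of the 6 libraries, coloured by group, with circles for replicate 1 and triangles for replicate 2, ordered by the mean over libraries. Ehmt2 lay at 23.8 to 29.3 RPKM, above every value of the other 9 genes, and Wiz spread most widely, from 0.902 to 1.71.

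The 250 bases before the annotated start of Wiz and Kdm3a are shown because they are the members with a called difference described further on. They are the most upstream windows listed by RefSeq for GRCm38.p6, written 5′ to 3′ on the strand of the gene. Capitals mark ACGTG or its reverse complement CACGT, 1 form of the core recognized by hypoxia-inducible factors, which are known to induce Kdm3a. A palindromic CACGTG counts as 2 overlapping matches. The other form of the core, GCGTG or its reverse complement CACGC, was neither marked nor counted, and its letters occur in both windows.
Wiz, chr17:32389407-32389656, minus strand: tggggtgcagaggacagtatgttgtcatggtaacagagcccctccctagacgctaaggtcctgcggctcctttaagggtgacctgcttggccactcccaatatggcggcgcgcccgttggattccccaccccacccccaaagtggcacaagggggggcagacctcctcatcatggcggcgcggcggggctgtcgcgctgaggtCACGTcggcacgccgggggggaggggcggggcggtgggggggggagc
Kdm3a, chr6:71632918-71633167, minus strand: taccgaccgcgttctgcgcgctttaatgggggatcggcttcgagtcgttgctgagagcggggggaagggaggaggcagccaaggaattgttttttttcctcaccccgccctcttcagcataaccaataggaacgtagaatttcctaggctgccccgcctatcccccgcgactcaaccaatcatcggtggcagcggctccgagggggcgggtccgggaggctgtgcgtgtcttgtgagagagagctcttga
The window of Wiz held 1 match to ACGTG or CACGT and that of Kdm3a held 0. Of 32851 promoter windows of this length, 16.6% held at least 1 match to these letters. The cAMP response element TGACGTCA, a palindrome bound by CREB, was in neither window and in 1.55% of all windows. The windows held 18 and 20 CG dinucleotides, against a median of 6 over all windows. Letters of these windows alone do not show binding of a factor, and absence of the letters says nothing about the factor.

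EHMT2 and EHMT1 are the enzymes that UNC0642 inhibits, and the first comparison asks whether their transcripts differed in the tauopathy model. Ehmt2 lies on chromosome 17 of GRCm38 from 34898469 to 34914052 on the plus strand, and was measured deeply, with 2282 to 4457 counts a library. Ehmt2 was at 153 and 158 CPM in WT mice (mean 155.5 ± 3.11, SD, n = 2), at 159 and 131 CPM in Tau mice (145.0 ± 20.3, SD, n = 2), and at 147 and 161 CPM after UNC0642 (153.9 ± 9.45, SD, n = 2). Tau replicate 2 was the lowest of the 6 and Tau replicate 1 the second highest, so that the groups overlapped in every comparison. The log2 fold change of Ehmt2 in Tau relative to WT was -0.10 (standard error 0.099), with a 95% interval from -0.32 to 0.12, that is, from 0.802-fold to 1.09-fold. In the edgeR quasi-likelihood test the adjusted p was 0.715. This value rested on single libraries, at -0.25 without Tau replicate 1 and 0.04 without Tau replicate 2, the library with the raised oligodendrocyte and striatal markers. Without the library labelled WT replicate 1 it was -0.12. After UNC0642 the log2 fold change relative to Tau was 0.09 (standard error 0.099, interval -0.14 to 0.31), and relative to WT -0.01 (interval -0.23 to 0.21), or -0.04 without the library labelled WT replicate 1. The value relative to Tau was 0.24 without Tau replicate 1 and -0.05 without Tau replicate 2, and Ehmt2 was not called in either case.

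Ehmt1, on the minus strand of chromosome 2 from 24789928 to 24919614, was at 48.96 and 46.05 CPM in WT mice, at 44.9 and 48.4 CPM in Tau mice, and at 47.25 and 43.6 CPM after UNC0642. The groups overlapped throughout. Between Tau and WT mice its log2 fold change was -0.03 (standard error 0.096, interval -0.24 to 0.19), an interval from 0.847-fold to 1.14-fold, and after UNC0642 it was -0.04 (standard error 0.096, interval -0.25 to 0.18). The sum of both EHMT transcripts was 34.0 and 34.4 RPKM in WT, 34.6 and 29.8 in Tau, and 32.7 and 34.6 in treated mice, and thus lowest in Tau replicate 2.

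Wiz differed from the enzymes it binds. It lies on the minus strand of chromosome 17 from 32354055 to 32389439 and was counted 151 to 405 times a library. Wiz was at 13.76 and 15.82 CPM in WT mice (mean 14.8 ± 1.46, SD, n = 2), at 13.80 and 10.5 CPM in Tau mice (12.1 ± 2.35, SD, n = 2), and at 8.94 and 8.34 CPM after UNC0642 (8.64 ± 0.427, SD, n = 2). Both treated libraries were below all 4 others, whereas WT and Tau overlapped at their replicates 1. Relative to Tau, its log2 fold change after UNC0642 was -0.50 (standard error 0.17, interval -0.88 to -0.12), a level 0.707 times that of Tau. The unadjusted p was 0.0153 in the edgeR quasi-likelihood test, and the adjusted p over all genes was 0.464. Called is used here for a change of 1.2-fold or more with an unadjusted p under 0.05. The study gave the same limits without saying whether p was adjusted, and its numbers of called genes differ from those here. Wiz was the single member called in this comparison. Of all tested genes, 7.69% were called there, 3.95% as lower and 3.73% as higher, so 1 of 10 is near the background.

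The call of Wiz after UNC0642 depended on 3 settings. Without Tau replicate 1 its log2 fold change relative to Tau was -0.28 (unadjusted p = 0.178 in the edgeR quasi-likelihood test), and without UNC0642 replicate 2 it was -0.45 (unadjusted p = 0.0777 in the same edgeR test). With a term for Y-linked expression in the model, it was -0.30 (unadjusted p = 0.311 in the edgeR test). Within Tau mice and within treated mice the Y-linked type did not vary, so that term was estimated from the difference between the WT libraries. It therefore rests on the library labelled WT replicate 1 and cannot separate sex from treatment. Relative to WT, UNC0642-treated mice had a log2 fold change of -0.78 for Wiz (standard error 0.17, interval -1.16 to -0.40), a level 0.583 times that of WT. In this comparison the edgeR quasi-likelihood test gave an unadjusted p of 9.8e-04 and an adjusted p of 0.119. Across the alternatives its unadjusted p there stayed between 1.2e-05 and 0.0101. The value was -0.88 without the library labelled WT replicate 1. With the term for Y-linked expression it was -0.67, but there the term in effect sets treated mice against the library labelled WT replicate 1 alone. Between Tau and WT mice Wiz had a log2 fold change of -0.28 (standard error 0.17, interval -0.64 to 0.09) and did not pass, with -0.50 and a call without Tau replicate 1, -0.10 without Tau replicate 2 and -0.375 without the library labelled WT replicate 1. The ratio of Ehmt2 to Wiz in RPKM was 18.8 and 16.8 in WT, 19.4 and 21.0 in Tau, and 27.7 and 32.4 in treated mice. Exons of Wiz share 22.1% of their bases with the opposite-strand noncoding gene Gm26858, which had 0 counts in all 6 libraries.

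Among the trimethyl writers no call was made in any comparison. Setdb1 was at 56.6 and 52.3 CPM in WT mice, at 51.6 and 51.2 CPM in Tau mice, and at 50.4 and 56.0 CPM after UNC0642. Log2 fold changes of Setdb1 were -0.08 between Tau and WT mice (interval -0.29 to 0.13), 0.05 after UNC0642 (interval -0.16 to 0.26) and -0.03 between treated mice and WT. Both Tau libraries lay below both WT libraries, and the treated libraries overlapped both groups.

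Suv39h1 is on the X chromosome, from 8061171 to 8074760. It was at 17.35 and 17.30 CPM in WT mice, at 18.8 and 16.5 CPM in Tau mice, and at 20.8 and 19.5 CPM after UNC0642. Both treated libraries, which were of the Y-linked type, were above the other 4. The library labelled WT replicate 1, also of that type, was at 17.35 CPM, and the part of sex was not tested. The log2 fold change was 0.19 relative to Tau (standard error 0.12, interval -0.08 to 0.46) and 0.22 relative to WT (standard error 0.12, interval -0.05 to 0.49), and neither passed. Suv39h1 shares 14.6% of its exon bases with the antisense gene Gm14820, which had 0 to 6 counts a library.

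Suv39h2 was counted 123 to 187 times a library and was the least precise member. It was at 6.58 and 5.04 CPM in WT, 6.69 and 7.615 in Tau, and 7.28 and 5.96 in treated mice. Both Tau libraries were above both WT libraries, by little, and the treated libraries spanned the gap. The log2 fold change in Tau relative to WT was 0.30 (standard error 0.21), with an interval from -0.17 to 0.76. After UNC0642 it was -0.11 (interval -0.58 to 0.36). The opposite-strand gene Dclre1c, with 243 to 430 counts, shares 8.10% of the exon bases of Suv39h2.

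**Figure D2:**
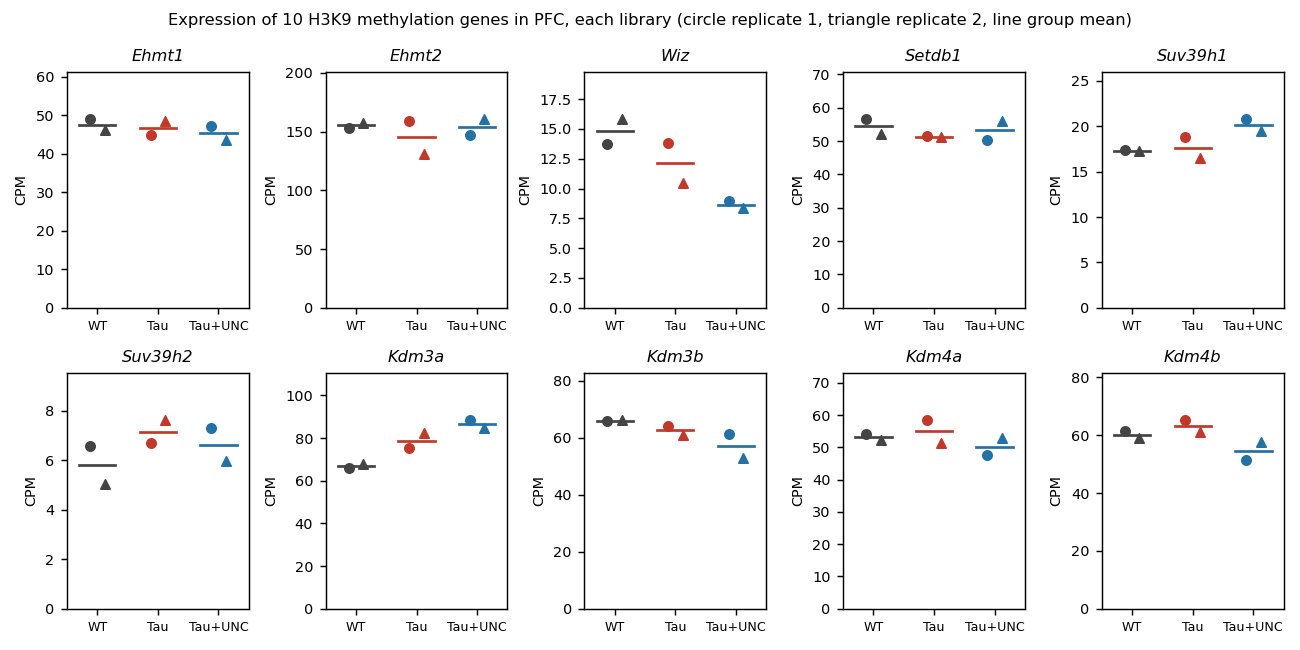
CPM of the 10 genes in each library (y axis from 0), by group, with circles for replicate 1, triangles for replicate 2 and a line at the group mean. Wiz was lowest in both UNC0642 libraries (8.94 and 8.34 CPM) and Kdm3a rose from 66.2 and 67.65 CPM in WT to 88.45 and 84.9 CPM in UNC0642-treated mice, while Ehmt1, Ehmt2 and Setdb1 overlapped between most groups.

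Of the dimethyl erasers, Kdm3a and Kdm3b showed different values. KDM3A is also known as a gene induced by low oxygen. Kdm3a, on the minus strand of chromosome 6 from 71588972 to 71632990, was at 66.2 and 67.65 CPM in WT mice (mean 66.9 ± 1.03, SD, n = 2), at 75.5 and 82.2 CPM in Tau mice (78.8 ± 4.73, SD, n = 2), and at 88.45 and 84.9 CPM after UNC0642 (86.7 ± 2.504, SD, n = 2). All 3 groups were apart, with WT lowest and treated mice highest, an order without overlap that 2.97% of all tested genes had. Treated mice had 1.295 times the WT level, with a log2 fold change of 0.37 (standard error 0.084, interval 0.19 to 0.56). The unadjusted p was 0.00116 and the adjusted p 0.128 in the edgeR quasi-likelihood test. Without the library labelled WT replicate 1 the log2 fold change was 0.36. It was 0.39 with the term for Y-linked expression, which here too in effect sets treated mice against that library alone. Kdm3a was called under all 13 alternatives, which share libraries and are not independent checks.

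In Tau relative to WT, Kdm3a had a log2 fold change of 0.24 (standard error 0.084, interval 0.05 to 0.42). This was 1.18-fold, short of the fold limit, at an unadjusted p of 0.0181 and an adjusted p of 0.324 in the edgeR quasi-likelihood test. Without Tau replicate 1 it was 0.30 and called, without Tau replicate 2 it was 0.18 (unadjusted p = 0.114 in the edgeR test), and without the library labelled WT replicate 1 it was 0.22 (unadjusted p = 0.0596 in the edgeR test). After UNC0642 relative to Tau it was 0.14 (standard error 0.084, interval -0.05 to 0.32), which did not pass although both treated libraries were above both Tau libraries.

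Kdm3b, whose gene lies on chromosome 18, was at 65.8 and 66.3 CPM in WT, 64.2 and 61.1 in Tau, and 61.3 and 53.1 in treated mice. UNC0642 replicate 2 was the lowest library, and the groups overlapped between Tau and treated mice. Relative to WT, the log2 fold change in treated mice was -0.21 (standard error 0.094, interval -0.42 to 1.9e-04), at an unadjusted p of 0.0502 in the edgeR quasi-likelihood test, and it was -0.31 and called without UNC0642 replicate 1 but -0.11 without UNC0642 replicate 2. The ratio of Kdm3a to Kdm3b in RPKM was 1.72 and 1.75 in WT, 2.02 and 2.31 in Tau, and 2.47 and 2.74 in treated mice, without overlap between groups.

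Of the trimethyl erasers, 0 were called. Kdm4b was at 61.4 and 59.0 CPM in WT mice, at 65.25 and 61.3 CPM in Tau mice, and at 51.3 and 57.8 CPM after UNC0642. Both treated libraries were the lowest of the 6. Its log2 fold change after UNC0642 was -0.21 (standard error 0.094, interval -0.42 to -0.0043), with an unadjusted p of 0.0462 in the edgeR quasi-likelihood test, and its level of 0.863 times that of Tau was short of the fold limit. Without UNC0642 replicate 2 the value was -0.30 and was called, and without UNC0642 replicate 1 it was -0.13 (unadjusted p = 0.305 in the edgeR test). Relative to WT it was -0.14 in treated mice (interval -0.35 to 0.07). Kdm4a was at 54.0 and 52.2 CPM in WT, 58.5 and 51.5 in Tau, and 47.5 and 52.8 in treated mice, with overlap in every comparison. Kdm4a had log2 fold changes of 0.05 between Tau and WT mice (interval -0.17 to 0.27) and of -0.13 after UNC0642 (interval -0.36 to 0.09). Over the 6 libraries Kdm4a and Kdm4b varied together, with a Pearson correlation of their log2 CPM of 0.913, given as a description of 6 libraries in 3 groups.

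Counted together, 0 of 10 genes were called in Tau relative to WT, where 9.81% of the tested genes were called, 3.72% as higher and 6.10% as lower. In UNC0642-treated relative to Tau mice 1 of 10 was called (Wiz, lower), and relative to WT mice 2 of 10 (Kdm3a higher, Wiz lower), where 9.47% of the tested genes were called, 3.77% as higher and 5.69% as lower. Each comparison shares a group with each of the others. With Benjamini-Hochberg adjustment over all genes, edgeR's quasi-likelihood test called 0 of the 10 in each comparison, and 0.157%, 0.0196% and 0.216% of all tested genes. At an unadjusted p under 0.05 alone it gave 1, 2 and 2 of the 10, against 12.4%, 8.86% and 12.1% of all tested genes. At an adjusted p under 0.05, the DESeq2 Wald test gave Wiz and Kdm3a between treated and WT mice, with adjusted p-values of 0.0296 and 0.0322. It gave 0 of the 10 in the other comparisons. DESeq2 itself passed more genes than edgeR at this adjusted threshold, 153, 71 and 270 genes, or 0.977%, 0.403% and 1.92% of those it gave an adjusted p. Groups did not overlap for 4, 4 and 5 of the 10 genes in the 3 comparisons, against 43.2%, 41.3% and 44.4% of all tested genes. The median log2 fold change of the 10 genes was 8.8e-04 in Tau relative to WT, -0.08 after UNC0642 and -0.05 between treated and WT mice, where all tested genes had medians of -1e-04, -0.0024 and -0.01. Intervals of 8, 9 and 8 of the 10 genes lay within a 1.5-fold change in either direction.

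**Figure D3:**
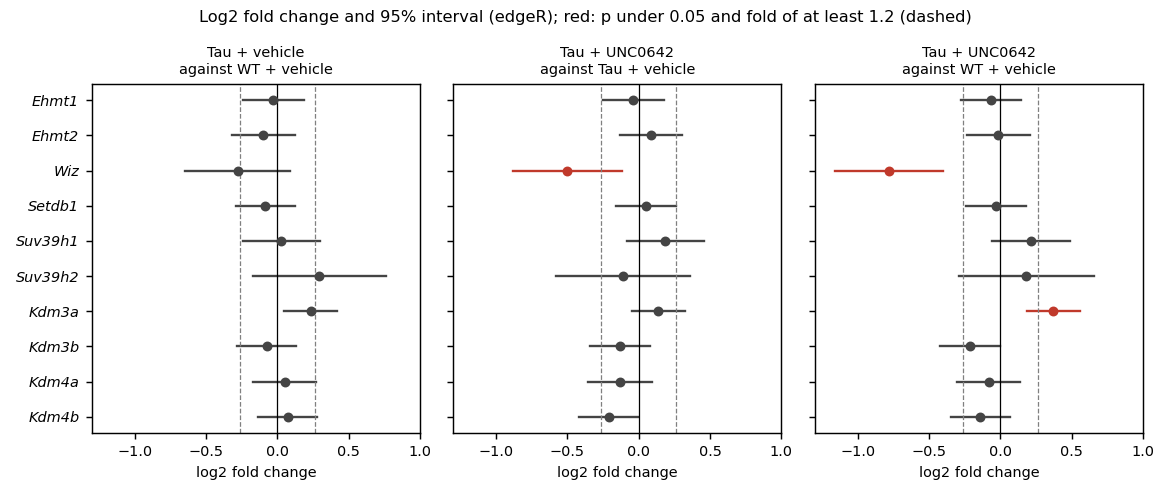
Log2 fold changes (x axis) of the 10 genes in the 3 comparisons, with bars for the 95% interval from edgeR's quasi-likelihood fit of all 6 libraries and dashed lines at a fold change of 1.2. Wiz (-0.50 and -0.78) and Kdm3a (0.37), in red, met the threshold, and Suv39h2 had the widest intervals.

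In treated relative to WT mice Wiz fell and Kdm3a rose, and the log2 CPM of these genes had a Pearson correlation of -0.913 over the 6 libraries, again a description only. Other transcripts differed between the same groups. A list of 7 immediate early genes, which neurons switch on with activity, summed to 503 and 378 CPM in WT mice, 633 and 652 in Tau mice, and 887 and 897 after UNC0642, and 5 of the 7 were called higher in treated than in WT mice. Of these, Arc was at 231 and 175 CPM in WT mice, at 333 and 370 CPM in Tau mice and at 536 and 553 CPM after UNC0642, and it dominated the sum. Relative to WT, Npas4 went the other way, with log2 fold changes of -0.62 in Tau and -0.12 in treated mice. In Tau relative to WT mice 2 of the 7 were called higher, while Fos, Fosb and Junb had 0.07, 0.03 and 0.09. The part of these genes in the values of Wiz and Kdm3a was not tested. The summed neuron markers were at 6276 and 6407 CPM in the treated libraries and at 5458 to 5951 CPM in the others, but the sum was dominated by Snap25 and Syt1. Between treated and WT mice Syt1 was called higher (log2 fold change 0.38), Snap25 had 0.22, and the other 4 markers lay between -0.25 and -0.13, with a median over the 6 of -0.14. The 8 endothelial and mural markers summed to 269.5 and 269.6 CPM in WT mice and to 218 to 233 CPM in the other libraries, with 5 of 8 called lower between Tau and WT mice and 3 of 8 between treated and WT mice, and their part was likewise not tested.

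**Figure D4:**
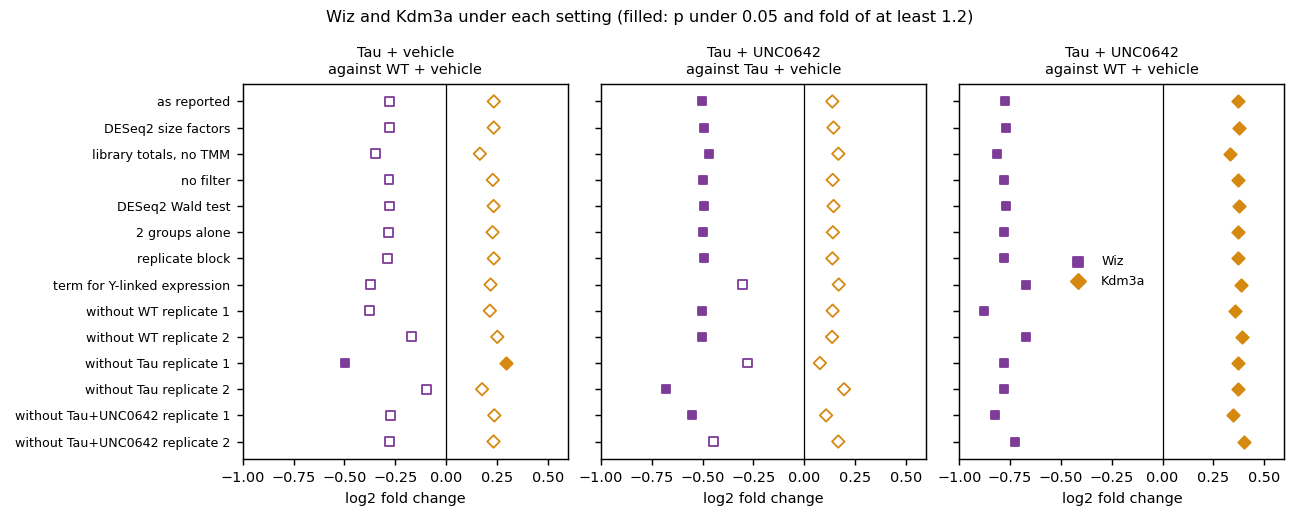
Log2 fold changes (x axis) of Wiz (squares) and Kdm3a (diamonds) as reported and under 13 other settings (y axis) in the 3 comparisons, filled where the threshold was met. Between UNC0642-treated and WT mice both were filled under every setting, from -0.88 to -0.67 for Wiz and from 0.33 to 0.40 for Kdm3a, whereas Wiz lost its call after UNC0642 relative to Tau under 3 settings.

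Other genes of the pathway were followed by lists, and their calls are to be read against the shares of all tested genes called, 9.81%, 7.69% and 9.47% in the 3 comparisons. After Benjamini-Hochberg adjustment of the edgeR quasi-likelihood test, 0 of these list genes had an adjusted p under 0.05, and the called genes Mecom, Kdm7a, Kdm4d, Cdyl2 and Atf7ip had adjusted p-values from 0.131 to 0.420. Of 4 further methyltransferases, 1 was called lower in Tau relative to WT mice, namely Mecom, at 4.34 and 3.71 CPM in WT, 2.54 and 1.83 in Tau and 2.49 and 2.25 in treated mice. Its log2 fold changes relative to WT were -0.86 in Tau (standard error 0.28) and -0.77 in treated mice (standard error 0.28). Of 8 further demethylases, Kdm7a, an eraser of H3K9me2 and H3K27me2, was called higher in Tau (log2 fold change 0.30) and in treated mice (0.41) relative to WT. Kdm7a was at 109.8 and 139 CPM in WT, 155 and 151 in Tau and 173 and 159 in treated mice, and the WT libraries lay further apart than those of Tau or of treated mice. The lower WT value was that of the library labelled WT replicate 1, whose Prnp went against its label. Fold changes of Kdm7a without that library are not given here, so its calls may rest on it. The testis-enriched Kdm4d was called lower in treated than in WT mice (log2 fold change -0.75, standard error 0.32). The remaining demethylases, Kdm1a, Jmjd1c, Kdm4c, Phf8, Phf2 and Hr, were not called in any comparison.

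Among 4 further partners of the EHMT complex, Zfp462, a zinc finger protein that recruits the EHMT enzymes, rose in Tau and fell after UNC0642. It was at 41.2 and 49.0 CPM in WT mice, at 56.0 and 55.4 CPM in Tau mice, and at 44.5 and 43.2 CPM after UNC0642. The log2 fold changes of Zfp462 were 0.30 (standard error 0.10) and -0.35 (standard error 0.10), both called, with adjusted p-values of 0.312 and 0.421 in the edgeR quasi-likelihood test. Both comparisons share the Tau libraries. Every library of the Xist type, WT replicate 2 included, was above every library of the Y-linked type, so sex cannot be told apart from these differences. Cdyl2 was called higher in treated than in WT mice (log2 fold change 0.42), and Zfp644 and Cdyl were not called. Of 6 tested partners of SETDB1 and the HUSH complex, Atf7ip, which stabilizes SETDB1 in the nucleus, was called lower after UNC0642, relative to Tau (log2 fold change -0.27, standard error 0.079) and to WT (-0.35, standard error 0.079). Atf7ip was at 88.4 and 92.9 CPM in WT, 85.5 and 86.0 in Tau, and 72.2 and 70.2 in treated mice, so that both treated libraries lay below the other 4, although Setdb1 itself did not.

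Of the readers of H3K9 methylation, the HP1 genes Cbx1, Cbx3 and Cbx5 were not called. Uhrf1, which links H3K9 methylation to maintenance of DNA methylation and is expressed mainly in dividing cells, had 9 and 8 counts in WT, 34 and 24 in Tau and 4 and 8 in treated mice. Its levels were 0.355 and 0.3125 CPM, 1.22 and 1.37 CPM, and 0.237 and 0.353 CPM. The log2 fold changes were 1.95 in Tau (standard error 0.52) and -2.10 after UNC0642 (standard error 0.55), both called, with adjusted p-values of 0.242 and 0.394 in the edgeR quasi-likelihood test, and they rest on few reads. As with Zfp462 and Uhrf1, both Tau libraries were highest for the summed oligodendrocyte progenitor markers (123 and 121 CPM against 96.3 to 107) and the summed microglia markers (303 and 312 CPM against 247 to 289.5). For both sums WT replicate 2, also of the Xist type, came next, above the libraries of the Y-linked type. Of the 3 progenitor markers, Gpr17 was called higher in Tau mice (log2 fold change 0.54) and lower after UNC0642 (-0.33). Pdgfra (0.20 and -0.25) and Cspg4 (-0.08 and -0.36) were not called, and Cspg4 was not higher in Tau mice. Of the 6 microglia markers, 1 was called higher in Tau mice, while Cx3cr1 had -0.09. The part of these markers, and of sex, in the values of Zfp462 and Uhrf1 was not tested. Of 14 germline genes, a class silenced by H3K9 methylation in somatic cells, 6 had no count in any library, which allows up to 0.104 to 0.176 CPM each for 3 counts. Of the 5 that could be tested, 0 were called by edgeR in any comparison. The most abundant, Dazl, was at 4.06 and 6.76 CPM in WT, 4.65 and 6.64 in Tau, and 8.05 and 5.16 in treated mice, with overlap between groups.

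Over the 6 libraries, 140 of 20408 genes had a Pearson correlation of log2 CPM over 0.9 with Ehmt1 and 153 with Ehmt2, so single names carry little weight. Nearest to Ehmt1 were Ltb (0.995), Olfr115 (0.993), Arhgap11a (0.985), Taf1b (0.984) and Agpat2 (0.983), of which Ltb and Olfr115 were below 1 CPM in all libraries. Most opposite were Josd1 (-0.989), Cep83 (-0.981) and Ift74 (-0.978). Nearest to Ehmt2 were Tead4 (0.990), Gm29670 (0.985), Cage1 (0.984), Zfp977 (0.983) and Gm5540 (0.982), and most opposite were Brox (-0.994), Gm7478 (-0.984) and Pcyt2 (-0.983). All 5 of the former had their lowest and all 3 of the latter their highest value in Tau replicate 2, where Ehmt2 was lowest. Levels were low here too, at 0.1145 to 0.6175 CPM for Tead4 and 0.229 to 1.001 CPM for Gm29670. These correlations were computed over libraries that differ in depth and group, and no p-value is given.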

How the data were processed

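The authors made stranded libraries from RNA of PFC after DNase treatment and ribosomal RNA depletion, trimmed reads with Cutadapt, aligned them with TopHat2 (to RefSeq mRNAs as stated, with build mm10 in the submitters' processing notes) and counted them with featureCounts. They deposited raw counts per gene, not normalized. Versions, the strand setting and the handling of reads with several matches were not given in the sources used here, so reads of overlapping genes may be lost or shared. Dates stood in place of 26 gene names in 2 files, and those rows were joined by position.

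From these counts, filterByExpr (minimum count 10, minimum total 15) kept 20409 genes. TMM scaling and the quasi-likelihood test of edgeR 4.0.16 (R 4.3.3) were applied to all 6 libraries, with group means as coefficients and 3 residual degrees of freedom. Benjamini-Hochberg adjustment was over all tested genes. Standard errors and 95% intervals come from the coefficient and its F statistic. RPKM used the union of exons in GENCODE M21 (GRCm38). The floor of 3 counts covers counting error only. The code was tested on simulated data. Replicates were different mice and differed by more than sampling noise. Tables were written with pandas 2.3.3 and figures with matplotlib 3.10.9. Promoters are those of RefSeq for GRCm38.p6.

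The 10 members and all lists were chosen with earlier results of these data known. Named were all members, list genes that were called or counted singly, and the 5 most and 3 least correlated genes of Ehmt1 and Ehmt2. Alternatives were DESeq2 size factors, the DESeq2 1.42.0 Wald test, no filter, both compared groups fitted by themselves, a replicate block, a term for Y-linked expression (Ddx3y above Xist), adjusted p-values, and fits without each library. Library totals without TMM were added after the data were seen.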

Additional observations from a re-analysis of the deposited data

How the results depend on the processing

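Of 390 values of the member fold changes under alternatives, 364 kept their direction and their side of the threshold, 3 lost a call, 4 gained one and 19 changed sign, all 19 for genes that were not called. In edgeR, adjusted p-values under 0.05 in place of the unadjusted threshold left 32, 4 and 44 genes in Tau against WT, UNC0642 against Tau and UNC0642 against WT, and 0 members in each. With the DESeq2 Wald test the same threshold left 153, 71 and 270 genes, and 0, 0 and 2 members (Wiz and Kdm3a). The DESeq2 Wald test called 1322 genes in Tau against WT, against 2003. Library totals without TMM, added after the data were seen, changed the split of higher and lower genes from 759 and 1244 to 415 and 1742 in Tau against WT, from 762 and 807 to 900 and 635 in UNC0642 against Tau, and from 770 and 1162 to 536 and 1479 in UNC0642 against WT, and turned Suv39h1 to -0.042 and Kdm4a to -0.019 in Tau against WT. With the term for Y-linked expression, 0 members were called in UNC0642 against Tau, and signs turned for Ehmt1 in Tau against WT (0.017), Setdb1 in UNC0642 against Tau (-0.063) and Ehmt2 in UNC0642 against WT (0.0067). The term for Y-linked expression was estimated from the WT libraries alone, so its values rest on the library labelled WT replicate 1. Causes of these changes were not tested.

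With each library left out, the number of members called ran from 0 to 2 in Tau against WT (2 without Tau replicate 1), from 0 to 1 in UNC0642 against Tau (0 without Tau replicate 1, and Kdm4b in place of Wiz without UNC0642 replicate 2) and from 2 to 3 in UNC0642 against WT. In Tau against WT the log2 fold changes whose sign turned ran from -0.076 to 0.026 for Ehmt1, from -0.25 to 0.039 for Ehmt2, from -0.072 to 0.12 for Suv39h1 and from -0.046 to 0.14 for Kdm4a. In UNC0642 against Tau they ran from -0.097 to 0.019 for Ehmt1, from -0.053 to 0.24 for Ehmt2, from -0.026 to 0.12 for Setdb1 and from -0.26 to 0.030 for Suv39h2, and in UNC0642 against WT from -0.080 to 0.048 for Ehmt2 and from -0.11 to 0.041 for Setdb1. A replicate block gave 1792, 1404 and 1755 called genes against 2003, 1569 and 1932, and changed no call of a member. Same-numbered libraries are different mice, and the differences between replicates 1 and 2 correlated between groups at -0.034, -0.021 and -0.003, so the numbers were not taken as pairs. Depth limited Suv39h2 and Wiz, with 123 to 187 and 151 to 405 counts, and Uhrf1, with 4 to 34.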
